A study of Homo sapiens with 64 samples.

Results

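The 9 genes described here are markers and regulators of prostate luminal identity: the transcription factors FOXA1, HOXB13, GRHL2 and SPDEF, the splicing regulator ESRP1, the surface protein EPCAM, the secretory pathway protein AGR2, and the keratins KRT8 and KRT18. They were chosen by name, and each was found in every table: 9 of 26364 genes in the C4-2 time-course and RIP tables, 9 of 25207 in the HEK293T tables and 9 of 31796 gene names in the SLAM-seq tables. Luminal cells line the prostate gland and secrete its fluid, and most prostate cancers keep their gene program. FOXA1 is a pioneer factor that opens chromatin for other transcription factors, and HOXB13 is a homeobox factor that binds with it. GRHL2 and SPDEF maintain epithelial and secretory programs, ESRP1 sets epithelial splice forms, EPCAM is an epithelial adhesion protein, AGR2 is a protein disulfide isomerase of the endoplasmic reticulum, and KRT8 and KRT18 pair into the filaments of simple epithelia.

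The study asked whether FBL (fibrillarin), which 2′-O-methylates RNA as the enzyme of box C/D snoRNPs, binds mRNAs and alters their stability. C4-2, an androgen-independent prostate cancer line, was the line of interest, and HEK293T, a line from embryonic kidney, was the contrast. Of 64 libraries, 60 were analysed, with 2 replicates per group. All cells were transfected with an siRNA.

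FBL RIP libraries (RNA bound by an anti-FBL antibody) and their input libraries came from C4-2 cells with the control siRNA siCTRL. No control antibody library and no RIP after siFBL was analysed here. The C4-2 time course held siFBL and siCTRL at 0, 3, 6 and 12 h. The HEK293T course held siFBL, siNOP56 and siCTRL at 0, 6, 12 and 24 h; NOP56 is a core protein of the same snoRNP that holds its parts together. Per the labels, the hours served to measure mRNA half-life; the sources used here do not say how transcription was stopped. SLAM-seq reads the loss of RNA labelled with 4-thiouridine (S4U) as T>C conversions. It held C4-2 cells with siFBL and siCTRL, labelled with 100 µM S4U for 24 h and chased with 10 mM uridine.

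Total counts, in mega (M), were 22.9 to 33.3 M in RIP and input libraries, 79.0 to 106.1 M in the C4-2 course and 16 to 19.9 M in the HEK293T course, and SLAM-seq had 14.3 to 60.3 M mapped reads. Levels are CPM, counts scaled to a common library size with trimmed mean of M-values (TMM) factors. Changes are given on the log2 scale and were tested with edgeR (quasi-likelihood), with p-values adjusted by Benjamini-Hochberg over all genes tested and called below 0.05. Nothing in the labels says that replicates were separate cultures, so p-values measure the spread between these samples, which may be technical. In C4-2 cells at 0 h, FBL had 3.63 and 2.76 CPM with siFBL, against 304.9 and 265.4 CPM with siCTRL (log2 −6.48, SE 0.584, edgeR adjusted p = 4.23e-06).

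The luminal mRNAs divided into 2 groups by their recovery with FBL. The 4 transcription factors and both keratins were higher in the FBL RIP than in input, by 2.1-fold to 3.29-fold, while ESRP1, EPCAM and AGR2 were lower. This comparison asked which mRNAs were recovered with FBL in cells with normal FBL.

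HOXB13 had 314.1 and 328.7 CPM in RIP libraries, against 98.5 and 96.8 CPM in input libraries. Both RIP libraries lay above both input libraries, and the change was log2 1.72 (SE 0.0626, edgeR adjusted p = 3.17e-21), the highest of the 9 genes. FOXA1 had 348.7 and 373.6 CPM in RIP libraries, against 132.8 and 127.4 CPM in input (log2 1.47, SE 0.0634, edgeR adjusted p = 2.13e-19). SPDEF had 168.0 and 184.9 CPM in RIP, against 75.6 and 74.7 CPM in input (log2 1.23). GRHL2 had the highest CPM of the 9 in both kinds of library, at 936.4 and 946.9 in RIP, against 450.7 and 447.0 in input (log2 1.07). The keratins, whose many processed pseudogenes may share reads with them, lay on the same side: KRT8 had 275.3 and 287.9 CPM in RIP, against 125.8 and 120.7 CPM in input (log2 1.19). KRT18 had 217.8 and 245.7 CPM in RIP, against 92.9 and 94.6 CPM in input (log2 1.31). For none of these 6 genes did the RIP and input libraries overlap. The share of all genes without overlap was not counted, and 82.9% of all genes tested were called in this comparison.

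AGR2 stood at the other end. It had 35 and 35 counts in the RIP libraries (1.46 and 1.47 CPM), against 507 and 579 counts in input (15.7 and 18.3 CPM), which was 11.6-fold lower (log2 −3.53, SE 0.155, edgeR adjusted p = 3.35e-19). Only 56 of the 14967 genes tested had a lower log2 value. EPCAM had 121 and 158 counts in RIP (5.04 and 6.64 CPM), against 569 and 512 in input (17.6 and 16.2 CPM; log2 −1.53). ESRP1 had 60.7 and 65.3 CPM in RIP, against 116.4 and 122.7 CPM in input (log2 −0.93). RIP lay below input in both libraries for each of these 3 mRNAs, of which EPCAM encodes a membrane protein and AGR2 a protein of the secretory pathway, while ESRP1 encodes a nuclear protein.

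All 9 genes were called, against 82.9% of all genes tested. The direction counts were 6 of 9 higher, against 39.9% of all genes called higher, and 3 of 9 lower, against 43% called lower. The median of the 9 was log2 1.19, against −0.11 over all genes.

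Recovery with FBL moved with transcript length over protein-coding genes, and its part in these values was not tested. Among those whose longest principal transcript in GENCODE had 312 to 2057 nt, the median was log2 −0.96 and 19.7% were called higher; this class, the shortest of 4 equal ones, holds SPDEF (1895 nt), EPCAM (1724 nt), AGR2 (1778 nt) and KRT18 (1562 nt). Within this class SPDEF and KRT18 were higher in RIP, and AGR2 and EPCAM lower. In the longest class, from 4931 nt, which holds GRHL2 (5239 nt), the median was 0.84 and 68.8% were called higher. ESRP1, with 3806 nt, was lower within a class whose median was 0.20.

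The scaling decided 2 of the 9 calls. With library totals in place of TMM, the median of all genes moved by −0.94 and GRHL2 came to log2 0.13 (adjusted p = 0.0636). With scaling to ribosomal protein mRNAs it moved by 0.98, and ESRP1 came to log2 0.06 (adjusted p = 0.390). The other 7 genes kept their direction and their call under both scalings.

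**Figure D1:**
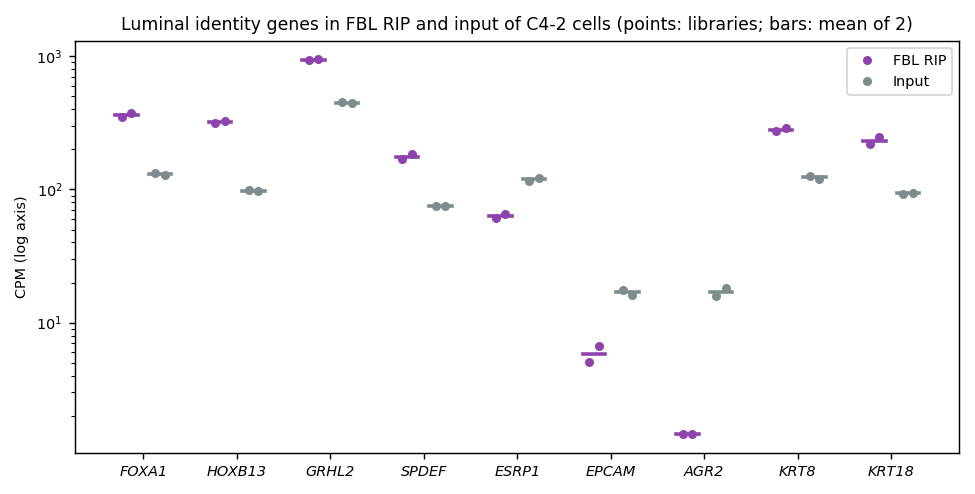
CPM of the 9 genes on a log axis in FBL RIP (left of each pair) and input libraries of C4-2 cells with siCTRL; points are libraries and bars the mean of 2. RIP points lie above input points for FOXA1, HOXB13, GRHL2, SPDEF, KRT8 and KRT18 and below them for ESRP1, EPCAM and AGR2, with AGR2 near 1.47 against 15.7 and 18.3 CPM.

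The other luminal genes in the list used for comparison, chosen like the 9 with earlier results known, were also recovered in both directions. Of 16 such genes, 12 were higher and 4 lower in RIP, against 39.9% and 43% of all genes, with a median of log2 0.80 against −0.11 over all genes. TMPRSS2, an androgen-regulated serine protease, had log2 2.02 and GATA2, a zinc finger transcription factor, log2 1.91, while the kallikrein KLK4 had −2.70 and the protease HPN −1.19. With library totals, where the median of all genes was −1.05, the 16 had a median of −0.14, with 6 higher and 8 lower against 18.6% and 69.7% of all genes. Of 25 other genes of the epithelial junction, protease and splicing program, 10 were higher and 11 lower, shares close to those over all genes; the desmosome protein DSP had log2 3.96 and the tight junction protein CLDN3 −2.28.

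C4-2 cells carried the luminal program that the 9 genes stand for: at 0 h the defining luminal marker KLK3 (prostate-specific antigen) had 2352 and 2061 CPM with siFBL, against 2341 and 2303 CPM with siCTRL, and it had 0 in the HEK293T libraries of that hour. In control C4-2 cells at 0 h the 9 mRNAs covered a wide range of levels. Per kilobase of the longest principal transcript, KRT18 averaged 315.4 CPM per kb, KRT8 243, FOXA1 203, SPDEF 196, HOXB13 143.4, EPCAM 72.6, GRHL2 45.8, AGR2 32.4 and ESRP1 21.7 (means of 2 libraries). FOXA1 and SPDEF did not differ beyond the spread of their libraries. With siFBL at the same hour, the 2 libraries differed from each other more than the siCTRL pair did for AGR2, KRT8 and KRT18, and to a smaller degree for HOXB13 and GRHL2.

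Over the control hours the 9 mRNAs separated into lost, steady and retained. Slopes are in log2 CPM per hour, from a straight line through the hours. The courses of FOXA1 and SPDEF were not straight, so the SE of a slope holds this misfit as well as the spread of libraries. Since CPM measures each mRNA against the rest of its library, a loss shared by all mRNAs is invisible, and an mRNA lost more slowly than most has a positive slope. FOXA1 and GRHL2 were lost fastest, SPDEF and HOXB13 fell more slowly, ESRP1 and KRT18 had no called slope after TMM scaling, and EPCAM, AGR2 and KRT8 gained in relative level, a direction that turned when libraries were scaled to ribosomal protein mRNAs. In siCTRL cells 7 of 9 slopes were called, against 35% of all genes; 4 were lower (19.2% of all genes) and 3 higher (15.9%).

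FOXA1 had 597.2 and 564.6 CPM at 0 h with siCTRL, 58.1 and 69.6 CPM at 3 h, 16.4 and 15.6 CPM at 6 h, and 10.7 and 9.45 CPM at 12 h. The libraries of one hour did not overlap with those of the next, and at 3 h 11% of the 0 h mean was left (slope −0.47 log2 per hour, SE 0.0664, edgeR adjusted p = 2.03e-05). GRHL2 had 244.8 and 235.1 CPM at 0 h, 46.3 and 53.4 at 3 h, 19.8 and 22.7 at 6 h, and 12.9 and 11.8 CPM at 12 h with siCTRL (slope −0.34, SE 0.0522). SPDEF took another course with siCTRL: it held 361.4 and 381.5 CPM at 0 h, 355.3 and 369.0 at 3 h, 286.7 and 280.9 at 6 h, and 112.4 and 127.8 CPM at 12 h. The 0 h and 3 h libraries overlapped, and the fall came later (slope −0.14, SE 0.0208). HOXB13 had 500.5 and 494.1 CPM at 0 h, 380.8 and 405.4 at 3 h, 343.9 and 329.5 at 6 h, and 270.5 and 273.6 CPM at 12 h, a gradual decline without overlap between hours (slope −0.07, SE 0.0127).

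AU-rich elements in 3′ UTRs, built on ATTTA pentamers, are known as marks of short-lived mRNAs. The 3′ UTR of FOXA1 holds 5 ATTTA pentamers on the transcript strand in 1381 nt, against a median of 2 in annotated 3′ UTRs within 10% of that length, of which 85.1% hold at least 1. AGR2, whose slope was positive after TMM scaling, holds 3 in 1097 nt (median 2, with 76.4% holding at least 1). These sites are shown because FOXA1 and AGR2 lie at opposite ends of the control course; all are on the minus strand of GRCh38 (GENCODE 29), 5′ to 3′, with the pentamer in capitals.
FOXA1 chr14:37591001-37591030: ttgtggagggttATTTAaaaaaacaaaaaa
FOXA1 chr14:37590653-37590682: catcctccgtatATTTAcataacatataga
FOXA1 chr14:37590416-37590445: tgagtgtataccATTTAaagaatttttttt
FOXA1 chr14:37590177-37590206: ttctcaatgttaATTTAttgcatggtttat
FOXA1 chr14:37590062-37590091: aaaaatattttgATTTAaataacaaaaata
AGR2 chr7:16792408-16792437: gcataaaagaatATTTAgaaaaacatccca
AGR2 chr7:16792330-16792359: gtacacactttcATTTAgtaattaaatttt
AGR2 chr7:16792241-16792270: ttcagaggtctaATTTAgtagaaaggtcat

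The count of pentamers did not order the 9 genes by slope, and its part in the slopes was not tested. GRHL2, lost nearly as fast as FOXA1, holds 2 in 3023 nt, against a median of 7 at like lengths. HOXB13, ESRP1 and EPCAM hold 2 each, and SPDEF, KRT8 and KRT18 hold 0. Over all 18630 genes with an annotated 3′ UTR, 65.2% hold at least 1. The longer motif TTATTTATT was found in none of the 9, against 7.6% of all genes. TGTANATA, the motif of Pumilio proteins, was found once each in FOXA1, GRHL2, ESRP1, EPCAM and AGR2, against 23.7% of all genes with at least 1. A match is a description of these letters, not of a bound site.

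With siCTRL, AGR2 had 63.0 and 52.3 CPM at 0 h, 67.2 and 71.3 CPM at 3 h, 86.1 and 80.0 CPM at 6 h, and 116.5 and 117.6 CPM at 12 h. Each later hour lay above the one before it, and the 12 h mean was 202.9% of the 0 h mean (slope 0.09, SE 0.0282, edgeR adjusted p = 0.0235). EPCAM with siCTRL had 134.6 and 115.6 CPM at 0 h and 242.5 and 221.5 CPM at 12 h (slope 0.07, SE 0.0127). KRT8 with siCTRL had 521.3 and 511.7 CPM at 0 h and 856.5 and 924.2 CPM at 12 h (slope 0.07, SE 0.0231, edgeR adjusted p = 0.0310). These directions hold relative to other mRNAs: scaled to ribosomal protein mRNAs, the median of all slopes moved by −0.09 and the slopes of EPCAM, AGR2 and KRT8 turned to −0.03, −0.01 and −0.03. ESRP1 stayed at 86.9 and 77.9 CPM at 0 h and 89.9 and 85.1 CPM at 12 h (slope 0.00, SE 0.0103), overlapping between the first and the last hour. KRT18 had 517.7 and 467.7 CPM at 0 h and 377.7 and 422.8 CPM at 12 h, with no called slope (−0.03, adjusted p = 0.332). Scaled to ribosomal protein mRNAs, ESRP1 and KRT18 were called lower with siCTRL, with slopes of −0.09 (edgeR adjusted p = 8.51e-06) and −0.12 (adjusted p = 1.25e-05), and with library totals they were called at −0.03 (adjusted p = 0.0261) and −0.06 (adjusted p = 0.0102). KRT8 and KRT18, which encode filament partners, had siCTRL slopes of opposite sign with TMM and both below 0 with ribosomal protein scaling; whether they differ from each other was not tested.

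**Figure D2:**
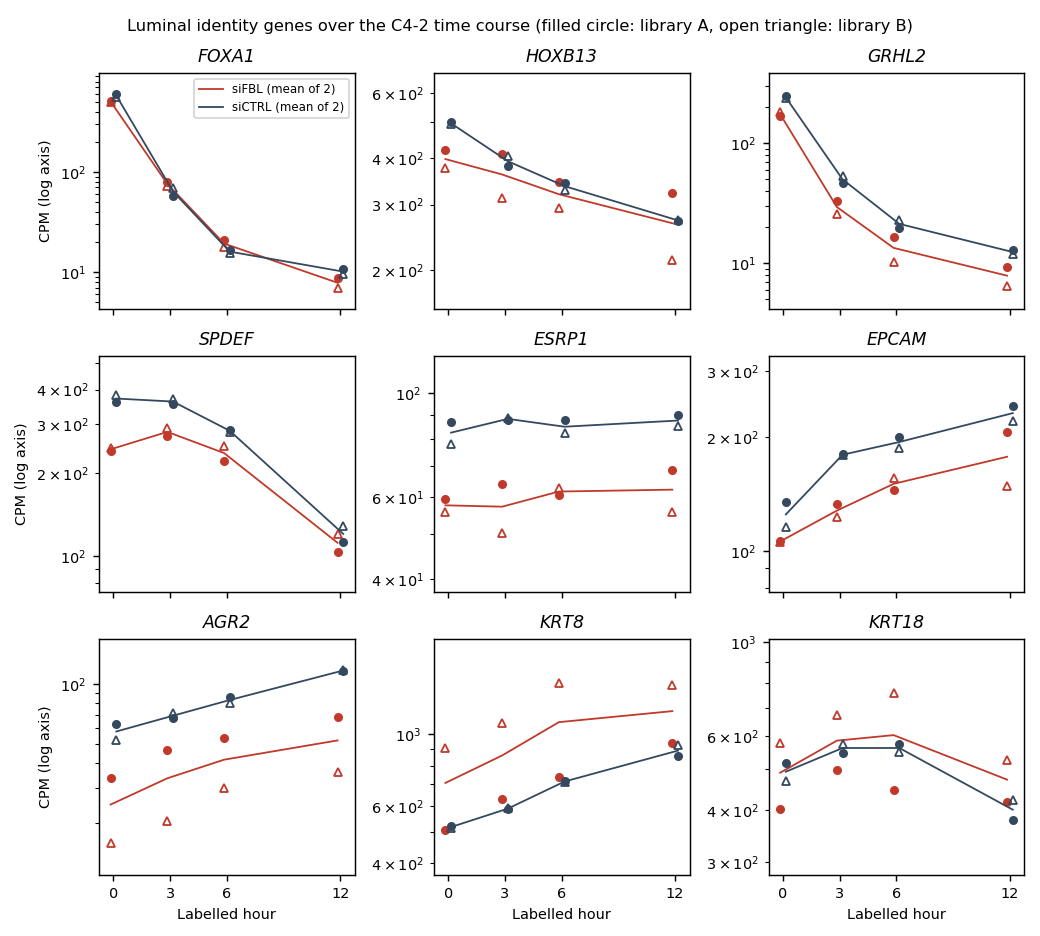
CPM (log axes, a separate scale per gene) against the labelled hour for the 9 genes in C4-2 cells with siFBL (red, drawn slightly left) and siCTRL (dark); filled circles are library A, open triangles library B, and lines the mean of 2. FOXA1 and GRHL2 drop steeply by 3 h under both siRNAs, EPCAM and AGR2 climb, and the siFBL libraries of AGR2 and KRT8 stay apart at every hour.

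The course after FBL loss was set beside the control course to ask whether siFBL changed relative decay. The order of the slopes was much the same. With siFBL, FOXA1 had 511.1 and 500 CPM at 0 h, 79.9 and 72.0 at 3 h, 20.9 and 17.6 at 6 h, and 8.67 and 6.94 CPM at 12 h. Its slope was −0.49 (SE 0.0688) with siFBL and −0.47 (SE 0.0664) with siCTRL. GRHL2 had a slope of −0.36 with siFBL and −0.34 with siCTRL, SPDEF −0.10 with siFBL and −0.14 with siCTRL, and HOXB13 −0.05 with siFBL and −0.07 with siCTRL. EPCAM had 0.06 with siFBL and 0.07 with siCTRL, and AGR2 had 0.09 with both. In siFBL cells 6 of 9 slopes were called, against 36.1% of all genes, with 4 lower (19.7% of all genes) and 2 higher (16.4%); that of KRT8 (0.06) had an edgeR adjusted p of 0.0509.

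None of the 9 differences in slope was called by edgeR, none had an unadjusted p below 0.05, and DESeq2 called 0 of them; the background was 1 of 22869 genes, or 0.00437%. A missed call does not show like slopes: FOXA1 differed by −0.02 log2 per hour with a 95% interval of −0.17 to 0.14, the widest of the 9, and SPDEF by 0.04 with an interval of −0.02 to 0.09. As shares of the 0 h mean, SPDEF kept 115.6% at 3 h, 96.9% at 6 h and 45.8% at 12 h with siFBL, against 97.5%, 76.4% and 32.3% with siCTRL. HOXB13 kept 67.1% at 12 h with siFBL and 54.7% with siCTRL. EPCAM stood at 167.6% with siFBL and 185.5% with siCTRL at 12 h.

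At single hours, siFBL cells held less of several luminal mRNAs. ESRP1, SPDEF, GRHL2 and EPCAM were each called lower at 1 hour or more, AGR2 had the most negative values without a call, and KRT8 and KRT18 had no call at any hour. In the total reads of SLAM-seq, given below, none of these genes was called lower. The comparison asked which mRNA levels changed with FBL loss, before and during the decay hours. In bulk RNA, fewer cells that express a gene and less of its RNA per cell cannot be told apart. Hours are not independent repeats with siFBL: its libraries of the same column number deviated together across hours, with correlations over genes of 0.68 to 0.81, while those of siCTRL had −0.14 to 0.25.

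ESRP1 had 59.4 and 55.7 CPM with siFBL at 0 h, against 86.9 and 77.9 CPM with siCTRL. Its siFBL libraries lay below its siCTRL libraries at each of the 4 hours, with no overlap. The share of all genes without overlap was not counted, here or for the other genes at these hours. The log2 changes were −0.52 at 0 h (SE 0.148, edgeR adjusted p = 0.0405), −0.63 at 3 h (adjusted p = 0.0118), −0.46 at 6 h (adjusted p = 0.0642) and −0.49 at 12 h (adjusted p = 0.0380). SPDEF had 240.2 and 246.2 CPM with siFBL at 0 h, against 361.4 and 381.5 CPM with siCTRL (log2 −0.61, SE 0.122, edgeR adjusted p = 0.00468). The groups did not overlap at 0 h, but they did at 12 h, with 102.9 and 120.1 CPM with siFBL against 112.4 and 127.8 CPM with siCTRL (log2 −0.11, 95% interval −0.35 to 0.13).

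GRHL2 had 33.0 and 25.7 CPM with siFBL at 3 h, against 46.3 and 53.4 CPM with siCTRL (log2 −0.77, SE 0.213, edgeR adjusted p = 0.0283). At 0, 6 and 12 h its siFBL libraries also lay below the siCTRL ones, with log2 values of −0.47, −0.66 and −0.65 that were not called (adjusted p = 0.190, 0.0659 and 0.0591). EPCAM was called at 3 h, with 133.0 and 123.1 CPM with siFBL against 180.3 and 179.7 CPM with siCTRL (log2 −0.49, SE 0.147, edgeR adjusted p = 0.0395). Its value at 0 h was −0.24 (adjusted p = 0.330). FOXA1 had no call and values of both signs, at log2 −0.20 at 0 h, 0.25 at 3 h, 0.27 at 6 h and −0.37 at 12 h. HOXB13 lay between −0.32 and −0.03 with no call, and came to −0.36 at 12 h without library A of siFBL and to 0.24 without library B.

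AGR2, HOXB13, KRT8 and KRT18 differed between the siFBL libraries themselves. AGR2 had 33.6 and 15.8 CPM with siFBL at 0 h, against 63.0 and 52.3 CPM with siCTRL (log2 −1.22, SE 0.388, edgeR adjusted p = 0.0636). Both siFBL libraries lay below both siCTRL libraries at each hour, yet library B had 0.441 to 0.56 of the CPM of library A over the hours with siFBL, against 0.829 to 1.06 with siCTRL. For HOXB13 the ratio of B to A was 0.662 to 0.893 with siFBL and 0.958 to 1.06 with siCTRL. KRT8 went the other way, with 504.5 and 909.7 CPM with siFBL at 0 h, against 521.3 and 511.7 CPM with siCTRL (log2 0.45, SE 0.302, edgeR adjusted p = 0.370). The ratio of B to A for KRT8 was 1.5 to 1.95 over the siFBL hours and 0.982 to 1.08 over the siCTRL hours, and that for KRT18 was 1.26 to 1.7 with siFBL. KRT18 had 401.9 and 578.1 CPM with siFBL at 0 h, against 517.7 and 467.7 CPM with siCTRL (log2 −0.01, 95% interval −0.44 to 0.42), and the groups overlapped.

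Among the 9, edgeR called 2 at 0 h (against 8.48% of all genes), 3 at 3 h (11.9%), 0 at 6 h (9.05%) and 1 at 12 h (13.4%), all lower; genes called lower made up 6.87% of all genes at 0 h, 8.94% at 3 h and 10.7% at 12 h. At 6 h, where edgeR called none, 5 had an unadjusted p below 0.05 (22.4% of all genes) and DESeq2 called 0. By DESeq2 the counts were 3 for 0 h, 3 for 3 h and 2 for 12 h, against 15.7%, 15.6% and 15.4% of all genes. The medians of the 9 were log2 −0.32, −0.37, −0.27 and −0.37 over the 4 hours, against 0.04, 0.09, 0.00 and 0.00 over all genes.

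The calls rested on the scaling and on single libraries. With library totals the median of all genes at 0 h moved by 0.25, and SPDEF and ESRP1 came to log2 −0.36 and −0.26 with adjusted p-values of 0.0798 and 0.257; scaled to ribosomal protein mRNAs they came to −0.39 (adjusted p = 0.0657) and −0.30 (adjusted p = 0.147). At 3 h library totals moved the median by 0.20 and ended all 3 calls, with GRHL2 at −0.56 (adjusted p = 0.125), ESRP1 at −0.42 (0.0548) and EPCAM at −0.29 (0.109), while FOXA1 came to 0.46 and was called higher (0.0475). At 12 h ESRP1 came to −0.28 (0.187) with library totals and −0.24 (0.204) with ribosomal protein scaling. Of the 16 fits that each left out 1 library, SPDEF kept its call at 0 h in all, ESRP1 lost it in 10 at 0 h and in 9 at 12 h, and EPCAM lost it in 8 at 3 h. For ESRP1 these were any of the 8 siCTRL libraries, with either siFBL library of 0 h at 0 h and library B of siFBL of 12 h at 12 h (adjusted p = 0.0646 to 0.345 at 0 h and 0.0525 to 0.231 at 12 h). For EPCAM they were any siCTRL library of 3, 6 or 12 h and either siFBL library of 3 h (adjusted p = 0.0592 to 0.245). GRHL2 lost its call at 3 h in 3: without library A of siCTRL at 3 h (adjusted p = 0.0772), library B of siCTRL at 3 h (0.193) or library B of siFBL at 3 h (0.201). ESRP1 lost its call at 3 h without the same 3 libraries. AGR2 gained a call in 7 of these fits at 0 h, in 1 at 3 h and in 7 at 12 h, each without 1 siFBL library. Its log2 change at 0 h was −1.87 without library A of siFBL at 0 h and −0.78 without library B.

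**Figure D3:**
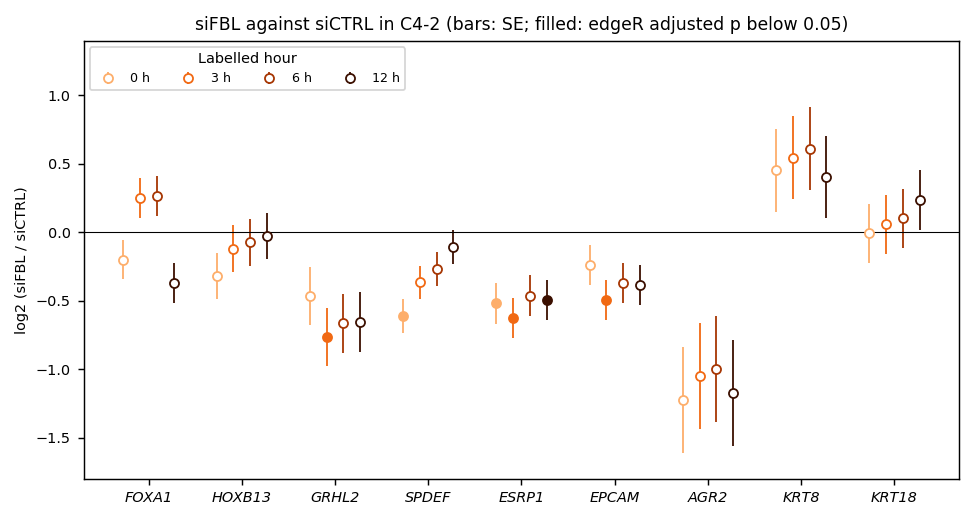
log2 change with siFBL against siCTRL in C4-2 cells for the 9 genes at 0, 3, 6 and 12 h (light to dark); points are edgeR estimates, bars their SE, and filled points have an adjusted p below 0.05. ESRP1 lies between −0.46 and −0.63 at every hour, AGR2 near −1 to −1.22 with wide bars and no filled point, and KRT8 lies above 0 with no filled point.

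Other luminal genes moved in both directions after siFBL. Of 16, 2 were higher and 3 lower at 0 h, against 1.61% of all genes called higher and 6.87% called lower: TMPRSS2 (log2 0.66) and HPN (0.68) were higher, and NCAPD3, a condensin subunit with androgen-dependent expression (−1.69), KLK2 (−0.52) and CREB3L4 (−0.45) were lower. At 12 h the counts were 4 higher (2.73% of all genes), with TMPRSS2 2.15-fold higher, and 3 lower (10.7%), with GATA2 at log2 −1.06. With library totals the counts at 0 h were 6 higher and 1 lower, against 5.19% and 3.72% of all genes. Of the 25 other epithelial genes, 0 were called at 0 h by edgeR, 1 was higher (2.98% of all genes) and 2 lower (8.94%) at 3 h, and 3 were higher and 2 lower at 12 h; ESRP2, the paralog of ESRP1, was higher at 3 h (log2 0.53, adjusted p = 0.0346), where ESRP1 was lower.

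Markers of other cell states were measured beside these changes, and their part in them was not tested. Summed over 12 basal epithelium genes, the libraries at 0 h held 24.0 and 28.1 CPM with siFBL, against 22.9 and 21.8 CPM with siCTRL; 2 were called higher, among them COL17A1 (log2 2.88), against 1.61% of all genes, and the median of the 12 was log2 1.06, against 0.04 over all genes. The defining marker KRT5 had 0.453 and 0.250 CPM with siFBL, against 0.0649 and 0.0911 CPM with siCTRL. The lists with few or no calls had medians above that of all genes too, at log2 1.07 for fibroblast, 0.82 for mesenchymal, 0.61 for neuroendocrine, 0.61 for HEK293T and 0.28 for leukocyte genes. Many of these genes were near the floor. With siCTRL at 0 h, 9 of 12 basal, 6 of 8 fibroblast, 6 of 10 mesenchymal and 8 of 10 neuroendocrine genes averaged under 1 CPM. So did 5 of 8 HEK293T and 4 of 8 leukocyte genes, so these medians rest largely on low counts. The 10 mesenchymal genes summed to 367.7 and 448.9 CPM with siFBL, against 399.9 and 392.3 CPM with siCTRL, with 0 called at 0 h. The 10 neuroendocrine genes summed to 11.09 and 12.96 CPM with siFBL, against 12.8 and 14.9 CPM with siCTRL, with 0 called. Fibroblast genes summed to 26.9 and 35.3 CPM with siFBL, against 31.1 and 26.8 CPM with siCTRL, and leukocyte genes to 26.9 and 33.6 CPM with siFBL, against 25.3 and 24.2 CPM with siCTRL, with 0 of 8 called in each list. Of 8 genes that mark HEK293T, 2 were called lower with siFBL, against 6.87% of all genes, with NES at log2 −1.48. The 16 other luminal genes summed to 7254 and 7256 CPM with siFBL, against 7454 and 6979 CPM with siCTRL. At later hours the 12 basal genes had fewer calls. Called higher were 0 at 3 h, 0 at 6 h and 1 at 12 h, against 2.98%, 2.13% and 2.73% of all genes. Their medians at these hours were log2 1.23, 0.44 and 0.40, against 0.09, 0.00 and 0.00 over all genes.

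Some genes outside the 9 followed each member closely over the 16 C4-2 libraries, which share depth and hour; the correlations of log2 CPM describe these libraries, among 10027 genes averaging 5 CPM or more. PIK3R1 (r = 0.997) and TICAM1 (0.996) were nearest to FOXA1, and RNF43 and CREBBP (0.996 each) to GRHL2. HSPD1 (0.995) and HSPA9 (0.992) were nearest to EPCAM, SCML1 (0.993) and RBM3 (0.991) to AGR2, CLU (0.989) and SEL1L3 (0.980) to KRT8, and DCK (0.984) and UBA2 (0.981) to ESRP1. FAM111A (0.978) and ZNF28 (0.975) were nearest to HOXB13, MAP3K11 (0.977) and HSPA8 (0.976) to SPDEF, and GPKOW (0.945) and THAP4 (0.902) to KRT18. Between members, FOXA1 and GRHL2 had r = 0.974, AGR2 and ESRP1 0.866, and KRT8 and HOXB13 −0.853.

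SLAM-seq gave a second view of the same mRNAs in C4-2 cells, through their annotated 3′ UTR intervals. In 12 of 16 libraries the labelled hour and that in the file's header disagreed, and the share of reads with T>C conversions followed the header hour. For this reason no decay was compared between labelled hours, and the shares by header hour given next are a description. Over the 16 libraries KRT8 had 157595 reads in its interval (hg38 chr12:52897187-52897427, minus strand) and AGR2 11055 (chr7:16791811-16792907, minus strand).

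FOXA1 (chr14:37589552-37591364, minus strand) carried conversions in 60.7% and 62.5% of reads at header 0 h with siFBL, against 73.6% and 74.9% with siCTRL. At header 6 h the shares were 6.22% and 3.79% with siFBL, against 6.79% and 12.3% with siCTRL. The siFBL libraries lay below the siCTRL libraries at both header hours, without overlap, the share of which over all genes was not counted. By header 6 h GRHL2 had a mean share of 11.1% with siFBL and 11% with siCTRL, while the means over all intervals were 31.3% with siFBL and 35.2% with siCTRL. AGR2 kept 38.0% and 36.7% at header 6 h with siFBL, against 45.0% and 44.5% with siCTRL; its shares at header 0 h were 48.5% and 47.8% with siFBL, against 42.9% and 41.7% with siCTRL. EPCAM (chr2:47386614-47387020, plus strand) kept 48.0% and 40.1% at header 6 h with siFBL, against 41.7% and 40.2% with siCTRL. FOXA1 and GRHL2 were thus below, and AGR2 and EPCAM above, the mean of all intervals at header 6 h under both siRNAs, on the same side of the average as their slopes in the time course.

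SPDEF and HOXB13, whose slopes were also negative, lay below the mean of all intervals as well. SPDEF (chr6:34537802-34538273, minus strand) had a mean share of 19.1% at header 6 h with siFBL and 23.1% with siCTRL. HOXB13 (chr17:48724763-48726789, minus strand) had 21% with siFBL and 31.5% with siCTRL. These shares and the CPM of the time course are not the same measure: one is the loss of labelled RNA during the chase and the other a level relative to other mRNAs. At the same hour KRT18 (chr12:52952843-52952906, plus strand) had 37.6% with siFBL and 44% with siCTRL, and KRT8 33.8% with siFBL and 41.1% with siCTRL, all above the means of all intervals, though KRT18 had no positive slope. ESRP1, with no called slope, had 31.4% with siFBL and 33.9% with siCTRL at header 6 h, close to those means, and 9.15% with siFBL and 10.2% with siCTRL at header 12 h, below the means of 19.9% with siFBL and 23.1% with siCTRL. KRT18 also lay below the means at header 12 h, at 16.9% with siFBL and 18.6% with siCTRL. KRT8 then had 17.9% with siFBL, below the mean, and 23.5% with siCTRL, close to it. Shares at 1 hour do not show how much label was lost, since the genes began at unlike shares. At header 0 h with siFBL, ESRP1 had 79.8%, KRT18 63.3%, KRT8 47.9% and all intervals 53.7%. With siCTRL these were 89.5% for ESRP1, 71.3% for KRT18, 55.2% for KRT8 and 56.7% for all intervals.

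**Figure D4:**
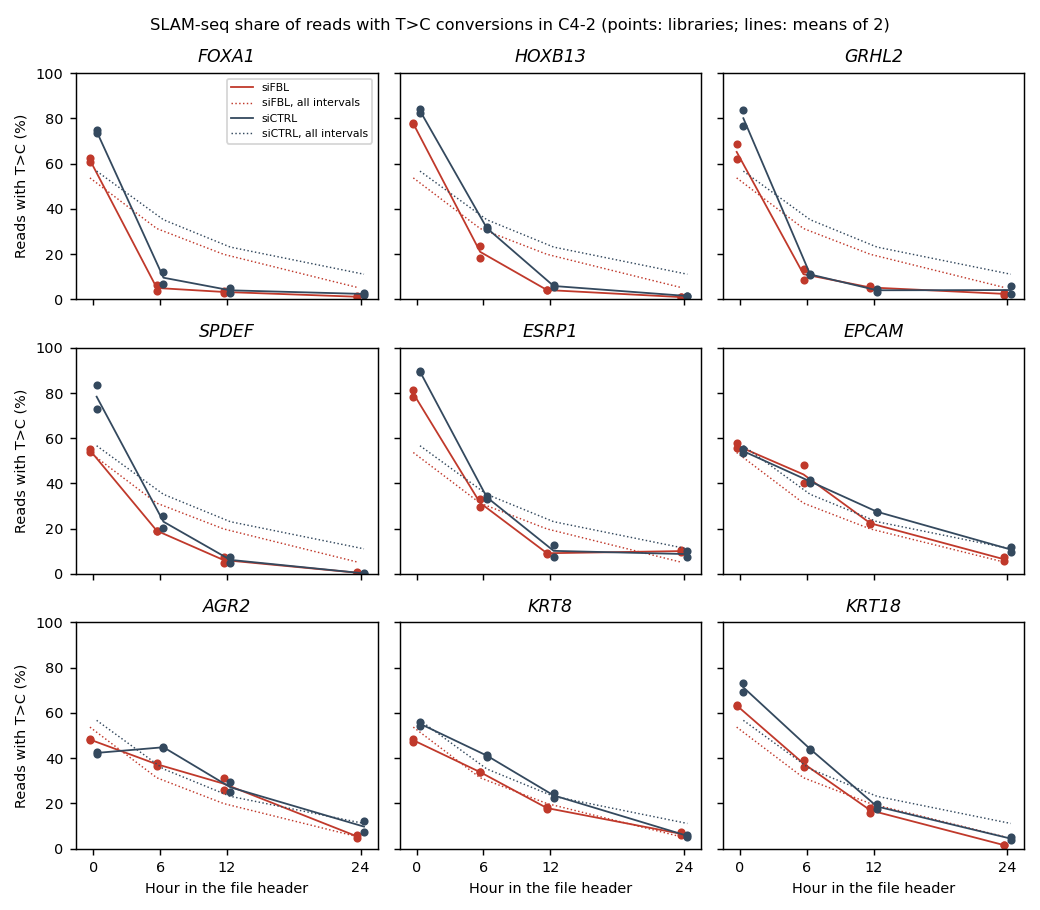
Percent of SLAM-seq reads with T>C conversions for the 9 genes against the hour in the file header, in C4-2 cells with siFBL (red, drawn slightly left) and siCTRL (dark); points are libraries, solid lines the mean of 2 and dotted lines the mean over all intervals. At 6 h FOXA1 and GRHL2 lie far below the dotted lines, while EPCAM and AGR2 lie above them.

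The test of T>C shares between siRNAs depends on the hour used as a term. With the labelled hour, libraries of unlike conversion share an hour, and edgeR called 0 of 9 genes and 0 of 11682 genes in all (0%), with 0 of the 9 at an unadjusted p below 0.05, so that fit says nothing of the 9. With the header hour in its place edgeR called 0 of 9, against 0.402% of all genes. EPCAM alone had an unadjusted p below 0.05 there (log2 0.35, SE 0.144, edgeR adjusted p = 0.295), and DESeq2 was not run on these shares.

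KRT18 and SPDEF had more SLAM-seq reads with siFBL, and the call rested on the hour used. With the labelled hour 0 of 9 total read levels were called, against 0.929% of all genes, and 2 had an unadjusted p below 0.05: KRT18 (log2 0.59, SE 0.165, edgeR adjusted p = 0.105) and SPDEF (log2 0.95, SE 0.395, adjusted p = 0.280). With the header hour both were called, against 11.6% of all genes, KRT18 at log2 0.56 (SE 0.15, edgeR adjusted p = 0.0220) and SPDEF at log2 0.76 (SE 0.225, adjusted p = 0.0369). For SPDEF this direction was opposite to its called change in the C4-2 time course. Of the other genes called lower there, GRHL2 had log2 0.15 with the header hour, ESRP1 −0.22 and EPCAM −0.08. AGR2 had −0.16, and edgeR called none of these. DESeq2 with the labelled hour called KRT18 alone (adjusted p = 0.0240). KRT18 had 226 and 230 reads per M mapped reads with siFBL at header 0 h, against 211 and 183 with siCTRL, and 402 and 397 with siFBL at header 24 h, against 151 and 136 with siCTRL. Its siFBL libraries lay above the siCTRL libraries at each of the 4 header hours, without overlap, the share of which over all genes was not counted. SPDEF rested more on the 2 siFBL libraries with header hour 24, the deepest of that siRNA: it had 70.7 and 63.9 reads per M in these, against 10.6 to 18.1 in the other 6 siFBL libraries and 8.3 to 20.2 in the 8 siCTRL libraries. Among other luminal genes, TMPRSS2 was higher with siFBL in SLAM-seq (log2 0.61, edgeR adjusted p = 0.00859).

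HEK293T cells served as the contrast line, and the luminal program was largely missing there. The line and the experiment cannot be told apart, since each line had its own time course. At 0 h with siCTRL, KRT18, HOXB13, KRT8, FOXA1 and EPCAM were called higher in C4-2 than in HEK293T. Over all genes, 26.9% were called higher and 50.3% called in either direction. GRHL2, SPDEF, ESRP1 and AGR2 entered this model only through C4-2, so their higher calls were fixed in advance and are not counted. The CPM given next are scaled over both lines together. KRT18, the least different, averaged 450.1 CPM in C4-2 and 61.4 CPM in HEK293T (log2 2.88, SE 0.350, edgeR adjusted p = 3.92e-07). HOXB13 averaged 454.6 CPM in C4-2 and 22.6 CPM in HEK293T, and KRT8 472.2 CPM in C4-2 and 22.8 CPM in HEK293T. FOXA1 averaged 530.9 CPM in C4-2 and 17.1 CPM in HEK293T, and EPCAM 114.3 CPM in C4-2 and 1.06 CPM in HEK293T.

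The other 4 were near or at 0 in HEK293T. AGR2 averaged 52.7 CPM in C4-2 and had 0 counts in both HEK293T siCTRL libraries at 0 h. Against a floor of 3 counts per library this is at least 374-fold higher in C4-2, or at least 343-fold with library totals. GRHL2 averaged 219.3 CPM in C4-2, against 1 and 0 counts in HEK293T, SPDEF 339.7 CPM in C4-2 against 6 and 1 counts in HEK293T, and ESRP1 75.3 CPM in C4-2 against 2 and 0 counts in HEK293T. Over all 24 HEK293T libraries, GRHL2 had 0 counts in 20 and AGR2 in 21, and neither passed 2 counts in any.

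**Figure D5:**
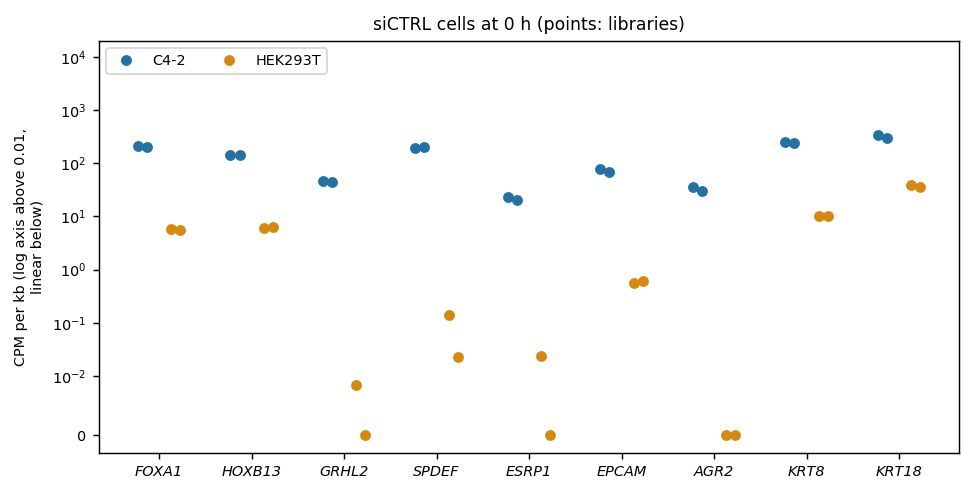
CPM per kb of transcript for the 9 genes with siCTRL at 0 h in C4-2 (blue, left of each pair) and HEK293T (orange), on an axis that is logarithmic above 0.01 and linear below; points are libraries. Each line was scaled on its own. C4-2 points lie above HEK293T points for each gene, and AGR2 is at 0 in both HEK293T libraries.

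Each knockdown lowered its target in HEK293T at 0 h, where FBL averaged 16.6 CPM with siFBL and 317.5 CPM with siCTRL (log2 −4.26), and NOP56 averaged 84.2 CPM with siNOP56 and 204.8 CPM with siCTRL (log2 −1.28, edgeR adjusted p = 0.0287). The 5 members that could be tested in HEK293T were not called after knockdown at 0 h. With siFBL 0 of 5 were called by edgeR, against 1.74% of all genes, 0 had an unadjusted p below 0.05 and DESeq2 called 0. With siNOP56 the counts were also 0 of 5, 0 and 0, against 0.187% of all genes. EPCAM had the most negative value with siFBL, at 0.647 and 0.282 CPM against 0.976 and 1.03 CPM with siCTRL (2.14-fold lower, edgeR adjusted p = 0.387). FOXA1 had 16.8 and 14.3 CPM with siFBL, against 16.4 and 15.9 CPM with siCTRL (log2 −0.05, 95% interval −0.46 to 0.35).

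The siFBL libraries of HEK293T also differed from each other in the keratins. KRT8 had 13.2 and 40.2 CPM with siFBL, 13.8 and 21.1 CPM with siNOP56, and 21.6 and 21.4 CPM with siCTRL at 0 h. The second siFBL library had 2.49 to 3.1 times the KRT8 level of the first over the 4 hours, against 0.899 to 0.988 times with siCTRL. KRT18 had a ratio of 1.4 to 2.59 with siFBL. In both lines, then, 1 siFBL library held more KRT8 and KRT18 than its partner at every hour; whether this has a shared source was not tested.

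Later hours in HEK293T are given as levels without a test. KRT18 had 20.7 and 53.8 CPM with siFBL at 24 h, 23.0 and 23.7 CPM with siNOP56, and 13.7 and 13.1 CPM with siCTRL. Both knockdowns lay above the control without overlap, the share of which over all genes was not counted. The means were 56.1%, 37.6% and 23.1% of those at 0 h. FOXA1 was lost early in HEK293T too, with 16.2% of the 0 h mean at 6 h with siFBL, 18.4% with siNOP56 and 19.2% with siCTRL. HOXB13 stood at 48.2% with siFBL, 34.5% with siNOP56 and 40.4% with siCTRL at 6 h, although control C4-2 cells kept 67.7% at that hour; the lines were scaled separately, and this difference was not tested.

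The siFBL effect at 0 h was compared between the lines in 1 model. GRHL2, SPDEF, ESRP1 and AGR2 had 0 to 6 counts in the HEK293T siCTRL libraries at 0 h and entered this model only through C4-2, so their differences cannot be judged. Among the other 5 genes 0 differences were called by edgeR, against 7.36% of all genes, 1 had an unadjusted p below 0.05 and DESeq2 called 0. That one was EPCAM, whose effect in C4-2 was higher than in HEK293T by log2 1.05 (SE 0.499, edgeR adjusted p = 0.241). This value rests on low counts, with 22 and 24 for EPCAM in the HEK293T siCTRL libraries at 0 h. The second HEK293T siFBL library also had only 0.366 to 0.481 times the EPCAM level of the first over the hours.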

How the data were processed

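Polyadenylated RNA of human cell lines was sequenced. The RIP and time-course tables that the authors deposited hold whole-number read counts per gene symbol. TopHat2 2.1.1 and HOMER appear for RIP in the submitters' processing notes, which do not say what each did, and hg38, GRCh38.p13 and hg19 appear without saying which table used which; coordinates from these tables are therefore left out. The sources used here do not give the aligner of the time courses, the counting tool or the use of strand; reads of overlapping or antisense genes, and of KRT8 and KRT18 and their processed pseudogenes, may be mixed. The SLAM-seq counts of reads, T>C reads, T positions and conversions per 3′ UTR interval were made with slamdunk 0.4.3 on hg38, per the file headers and the submitters' processing notes. The deposited CPM column of these files is a score used here only to recover mapped reads. For each gene the interval with most reads was used.

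Groups follow the labels, which name siNOP56 where the series design names shNOP56. C4-2 columns match groups but not single samples, and the 2 libraries of a group are named A and B. The 9 genes and the 8 marker lists (other luminal, other epithelial, basal, mesenchymal, neuroendocrine, fibroblast, leukocyte and HEK293T genes) were chosen with earlier results of these data known. Besides the 9, FBL and NOP56, the genes named are at most the 3 called genes with the largest change per list, direction and comparison, and for each member the 2 genes with the highest correlation. KRT5 was named as a defining basal marker after its values were seen. Some results that this rule would name are not reported here.

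Counts were fitted with edgeR 4.0.16 in R 4.3.3 (TMM scaling, its own low-count filter, the quasi-likelihood test, Benjamini-Hochberg adjusted p below 0.05). Each time course used 1 mean per siRNA and hour; slopes used hour as a number. Intervals at 95% are 1.96 SE. SLAM-seq fits had siRNA and labelled hour as terms, and the T>C share also a library term. The floor for a count of 0 is 3 counts per library and covers counting error only. The fits were tested on simulated data. DESeq2 1.42.0, no filter, library totals, scaling to ribosomal protein mRNAs, only the libraries compared, a replicate block, the header hour, no hour term, sums over intervals, no 0 h or 12 h libraries and leaving out each library were the alternatives. Transcript lengths and 3′ UTR sequences are from GENCODE 29 (GRCh38). The 4 nanopore libraries were not analysed here.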

Additional observations from a re-analysis of the deposited data

How the results depend on the processing

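The number of the 9 genes called in each comparison was recomputed under every alternative. In the RIP comparison 8 or 9 stayed called under each. For siFBL at 0 h, where 2 were called, library totals gave 0, scaling to ribosomal protein mRNAs 0 and only the libraries compared 1. For 3 h, with 3 called, library totals gave 1, which was FOXA1. For 12 h, with 1 called, DESeq2 and no filter gave 2 each, and library totals, scaling to ribosomal protein mRNAs and only the libraries compared gave 0 each; fewer samples entered the last of these, and the other causes were not tested. Of the siFBL slopes, with 6 called, 3 were called with no 12 h libraries. With no 0 h libraries 5 slopes were called with siFBL and 5 with siCTRL; AGR2 lost its call in both and KRT8 in siCTRL. For SLAM-seq total reads, with 0 called, DESeq2 gave 1, no filter 2 and the header hour in place of the labelled hour 2; no hour term and sums over intervals gave 0 for both SLAM-seq measures.

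Leaving out 1 library at a time leaves 1 library in its group. In the C4-2 course the number of genes called moved between these fits, over all genes as well as among the 9. This held at each hour and for the slopes with each siRNA. Among the 9, no call was lost in RIP. Between the lines none was lost among FOXA1, HOXB13, EPCAM, KRT8 and KRT18, the genes counted there. No call was gained for differences in slope, the HEK293T knockdowns or either SLAM-seq measure, nor among those genes for the effect between lines. At 0 h the log2 change was −0.6525 to −0.575 for SPDEF and −0.599 to −0.439 for ESRP1. At 3 h it was −0.956 to −0.564 for GRHL2, −0.812 to −0.429 for ESRP1 and −0.549 to −0.404 for EPCAM. At 12 h it was −0.652 to −0.350 for ESRP1. In the control course AGR2 lost its call in 3 fits, without library B of 0 h or either of 12 h (adjusted p = 0.0757 to 0.0850), and KRT8 in 4, without either library of 0 or 12 h (0.0703 to 0.119). With siFBL, AGR2 lost its call without library B of 0 h (0.116) or library A of 12 h (0.305), and KRT8 gained one in 5 fits. The slope of HOXB13 with siFBL was lost without library B of siFBL at 12 h (adjusted p = 0.0781).

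Values called under at least 1 of the fits compared that turned round were ESRP1 in RIP (0.0598, ribosomal protein scaling); with library totals the slope of ESRP1 with siCTRL (−0.0298) and siFBL (−0.0279); with ribosomal protein scaling the siCTRL slopes of ESRP1 (−0.0872), EPCAM (−0.0253), AGR2 (−0.00716) and KRT8 (−0.0260) and the siFBL slopes of ESRP1 (−0.0754), EPCAM (−0.0254) and AGR2 (−0.00151); and, with no 12 h libraries, the siFBL slope of SPDEF (0.00955). A further 139 values that were called in neither fit also changed sign.

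Over all genes, HEK293T siFBL gave 260 calls, DESeq2 751 and only the libraries compared 1; siNOP56 gave 28, 196 and 0. At 0 h in C4-2, 1988 became 3983 by DESeq2. SLAM-seq total reads gave 132, against 1655 with the header hour and 596 with no filter, and the T>C share 0, against 47 with the header hour.

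Same-numbered libraries of different groups at the same hour had deviations correlated at 0.15 in RIP, −0.12 to 0.08 between siRNAs of the C4-2 course, −0.02 to 0.23 in HEK293T and 0.45 to 0.56 in SLAM-seq, which with 2 numbers does not show pairing. Between hours of 1 siRNA they were 0.81 to 0.91 for siFBL and 0.66 to 0.88 for siNOP56 in HEK293T, and −0.65 to 0.92 in SLAM-seq, whose labelled hours are in doubt. A replicate block gave 12541 calls in RIP (12406 without it), 861 for HEK293T siFBL (260), 140 for siNOP56 (28) and 142 for SLAM-seq total reads (132), with no call changed among the 9 genes. In the C4-2 course the replicate block, by column number, gave 3 of the 9 at 0 h, 5 at 3 h, 3 at 6 h and 3 at 12 h, against 11.4%, 16%, 12.5% and 16.9% of all genes; AGR2 gained a call at each hour (adjusted p = 0.00279 to 0.0114), GRHL2 and ESRP1 at 6 h, GRHL2 at 12 h and SPDEF at 3 h. For slopes it gave 7 with siCTRL, 7 with siFBL, where KRT8 gained a call, and 0 differences; a block within each siRNA, chosen after seeing the data, gave the same 3 counts.

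Depth limits AGR2 and EPCAM in RIP and all but 5 of the genes in HEK293T, where single counts remain. Among those 5, EPCAM was low too, with 5 to 42 counts in the HEK293T libraries.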
